A study of Mus musculus with 5 samples.

Results

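Photoreceptors detect light in the outer segment, a stack of membrane discs built on a modified primary cilium, and a group of 41 genes that serve this structure was followed in the retinas of form-deprived mice. The members were taken by gene name, with no threshold on a measured value, and they comprise genes of the discs and outer segment (7 genes), of the interphotoreceptor matrix (3), of the connecting cilium (10), of the BBSome and its partners (9), of ciliary transport (5) and of the Usher protein network (7). All 41 were found among the 33636 rows of the gene table, and all 41 met the condition for being tested, a count above 10 in 2 or more of the 5 libraries, which 17432 genes met.

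The animals were wild-type male C57BL6/J mice and carried no transgene. For the eye measurements they received tropicamide drops and were anaesthetised with ketamine and xylazine. A diffuser goggle was held over the right eye from postnatal day 28 (P28) for 2 weeks to induce form-deprivation myopia (FDM), and the left eye of the same animals stayed uncovered as the control, so that no eye came from an animal without a goggle. Whole retinas were taken at P42, when the labels give refractive errors of 0.976 and 0.2745 D for the 2 FDM eyes and of 2.4455, 3.1505 and 2.465 D for the 3 control eyes. The comparison asked which transcripts differed between the FDM retinas (FDM 1 and FDM 3) and the control retinas (Control 1, Control 2 and Control 3). The second FDM library carries the number 3 in both deposited tables and in the paper and the number 2 in the sample labels, and a further FDM library, which the authors left out for its read duplication, was not analysed here.

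All proteins of the outer segment are made in the inner segment and reach it through the connecting cilium, a narrow bridge of microtubules with a gate at its base. Cargo is carried along the microtubules by intraflagellar transport trains and kinesin motors, while the BBSome, a coat-like complex recruited by the GTPase Arl6, removes proteins that do not belong in the outer segment. Discs are renewed throughout life, and loss of many of these genes leads to retinitis pigmentosa, Leber congenital amaurosis, Bardet-Biedl syndrome or Usher syndrome.

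Sequences before the transcription start are shown for members that carry one of 2 short motifs linked to photoreceptor and ciliary genes, since these genes are grouped here by the structure they serve. The letters were read from RefSeq promoters on GRCm38.p6, which span 250 bases before to 50 bases after the start of each gene, and 38 of the 41 members had an entry, Rp1, Rp1l1 and Ush1g being the others. TAATCC is the core recognised by the photoreceptor homeobox factor Crx, and GTTGCC is one arm of the X-box recognised by the RFX factors of ciliary genes. Both strands were searched, and positions are counted from the RefSeq start, the last base before it being −1. Capitals mark the motif, which reads as its reverse complement in Rbp3, Rpgrip1 and Ift140. Of Rpgrip1 only 30 bases are given, because GENCODE M21 places that stretch in the 5′ untranslated exon of a longer transcript. In Bbs7 the capitals cover both arms of the X-box form searched here, and 10 bases of the stretch lie in an annotated exon of Bbs7. The Kif3a stretch lies in an exon of the noncoding gene A430108G06Rik on all of its 80 bases. The Kif17 stretch lies inside the Kif17 gene of GENCODE M21, which starts upstream at base 138250435, but in no exon of it.
Rbp3, chr14:33953897-33953976, plus strand, from −106: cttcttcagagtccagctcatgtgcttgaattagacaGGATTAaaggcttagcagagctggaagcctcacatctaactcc
Rpgrip1, chr14:52110863-52110892, plus strand, from −40: gctaaaaggcctGGATTAgtgtctcctcta
Bbs7, chr3:36613468-36613547, minus strand, from −158: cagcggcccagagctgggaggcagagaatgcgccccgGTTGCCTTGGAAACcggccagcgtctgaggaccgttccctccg
Ift140, chr17:25015940-25016019, plus strand, from −146: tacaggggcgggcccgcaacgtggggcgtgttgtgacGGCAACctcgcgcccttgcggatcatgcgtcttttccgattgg
Kif3a, chr11:53567234-53567313, plus strand, from −135: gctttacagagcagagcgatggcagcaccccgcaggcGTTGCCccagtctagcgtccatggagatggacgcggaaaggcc
Kif17, chr4:138262141-138262220, plus strand, from −110: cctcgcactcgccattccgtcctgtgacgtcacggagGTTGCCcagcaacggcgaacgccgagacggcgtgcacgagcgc

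TAATCC stood in the promoters of 4 of the 38 members, namely Rbp3, Rpgrip1, Bbs1 and Adgrv1, against 8.14% of 27025 promoters of the genome and 3 of 6 promoters of rod marker genes. GTTGCC stood in 11 of the 38 members against 14.1% of all promoters, and by role these were all 5 transport genes, 3 of the 9 BBS genes, 2 of the 6 Usher genes, 1 of the 10 connecting cilium genes, and 0 of the 5 disc and 0 of the 3 matrix genes. GTTGCC lay before the start in Bbs7, Whrn, Kif17, Myo7a, Kif3a and Ift140 and at or after it in Ift172 (position 1), Bbs1 (2), Lca5 (7 and 35), Ift88 (22) and Bbs5 (43), and TAATCC lay after it in Adgrv1 (8). One form of the X-box with both arms, GTTGCC followed after any 2 bases by GGNAAC, was searched. This form was present in Bbs7 alone among the members and in 0.355% of all promoters. Other spacings and other second arms, such as GTTGCCcagcaac in the Kif17 stretch, were not searched. Of the other motifs searched, the homeodomain core TAAT, contained in TAATCC, was found in 21 of 38 members (61.4% of all promoters). The short Nrl-type site TGCTGAC was found in 2 (5.28%), the ETS core CCGGAAG in 9 (9.93%) and TATAAA in 3 (15.7%). A string covering only part of the Maf recognition element was found in 0 (0.167%), and this string does not contain TGCTGAC. The full Maf recognition element was not searched. A match describes the letters of the window and was not tested as a binding site.

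The libraries held 40599047 to 56534931 estimated counts, so that 3 counts, the floor used here, correspond to 0.0526 to 0.0751 CPM (counts-per-million, the count of a gene scaled to a fixed library size). Levels are given as CPM after scaling by the trimmed mean of M values (TMM). The markers of the retina were present, with 0 of the 38 rod, cone, bipolar, Müller glia, amacrine and ganglion cell markers at 0 in any library. Markers of tissue outside the neural retina differed in level between libraries, and whether such tissue was carried over was not tested. The summed level of 9 lens markers was 1935 CPM in FDM 3 and 2.98 to 18.8 CPM in the other 4 libraries, and 9 of 9 had an unadjusted p under 0.05. That of 8 pigment epithelium (RPE) markers was 55.9 to 66.4 CPM in FDM and 71.2 to 247 CPM in control libraries, with 5 of 8 under 0.05. The 4 muscle markers summed to 36.9 CPM in Control 3 and to 9.07 to 10.4 CPM elsewhere, and the 3 blood markers ranged from 18.1 to 27.3 CPM. The paper reports several crystallins among its most highly upregulated transcripts in form-deprived retinas. The part of lens, RPE, muscle or blood tissue in the levels of the outer segment and cilium genes was not tested.

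None of the 41 genes passed the test between FDM and control retinas. At the unadjusted p of 0.05, 0 of 41 were called by edgeR's quasi-likelihood test in either direction, where 1.61% of all tested genes were called (0.453% higher and 1.16% lower in FDM). In DESeq2 0 of 41 were called, where 172 of 17432 tested genes were. After Benjamini-Hochberg adjustment in edgeR, 0 genes were called among the 41 and among all genes. The smallest unadjusted p values were 0.155 for Ush1c and 0.166 for Rpgrip1, with adjusted p of 1.0. The log2 fold change of FDM over control was above 0 for 21 genes and below 0 for 20, with a median of 0.01 beside −0.01 over all tested genes. In bulk retina, fewer cells of a type and less RNA per cell cannot be told apart in any of these values.

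The data set a narrow range on the size of any difference in most members. The 95% interval of the fold change lay within 1.5-fold in either direction for 39 of the 41 genes, the exceptions being Cdh23 and Ush1c, and within 1.2-fold for 13. Over all tested genes 73.7% had an interval within 1.5-fold and 22.1% within 1.2-fold, and among the 10603 genes with a mean of at least 10 CPM, which resemble the members more closely in level, the shares were 97% and 36.1%. Leaving aside Ush1c, whose counts were near the floor, the ratio of the FDM mean to the control mean ran from 0.904 to 1.14 over 40 genes with a median of 1.0. The highest control library exceeded the lowest by 1.04- to 1.52-fold (median 1.19).

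**Figure D1:**
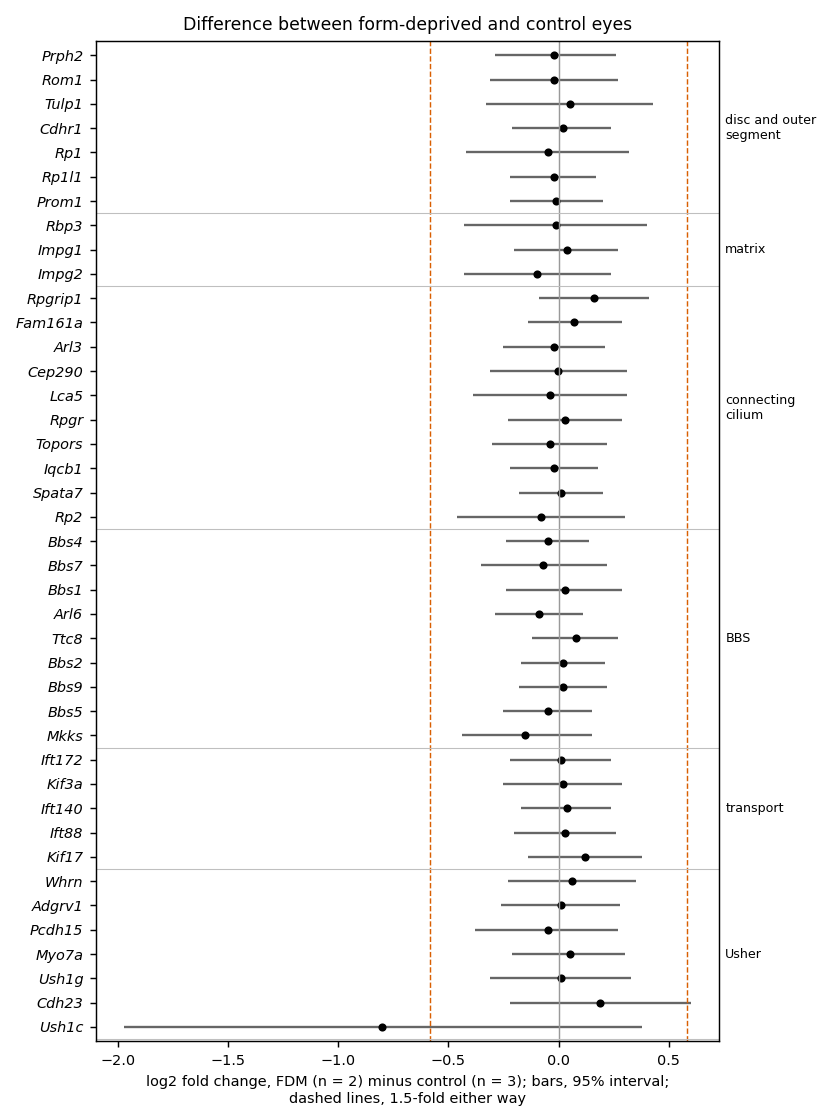
Log2 fold change of FDM (n = 2) over control (n = 3) retinas for the 41 genes, grouped by role and ordered by level, as points with their 95% intervals from the edgeR fit, with dashed lines at 1.5-fold in either direction. The intervals of 39 genes lie between the dashed lines, and those of Cdh23 and Ush1c extend beyond them.

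The level of the group spanned several orders of magnitude. Per kilobase of the longest coding transcript, the mean level over the 5 libraries was highest for Prph2 (2190 CPM per kb), Rom1 (1444), Rbp3 (872) and Tulp1 (719), and lowest for Ush1c (0.0578), Cdh23 (0.159), Ush1g (1.19) and Kif17 (2.13). The roles overlapped in level. The highest connecting cilium gene was Rpgrip1 at 231 CPM per kb, above the disc genes Cdhr1 (221), Prom1 (155), Rp1 (123) and Rp1l1 (103) and the matrix genes Impg1 (93.3) and Impg2 (34.2). The highest BBS gene was Arl6 at 69.9 CPM per kb, the highest Usher gene Whrn at 36.9 and the highest transport gene Kif3a at 19.1.

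**Figure D2:**
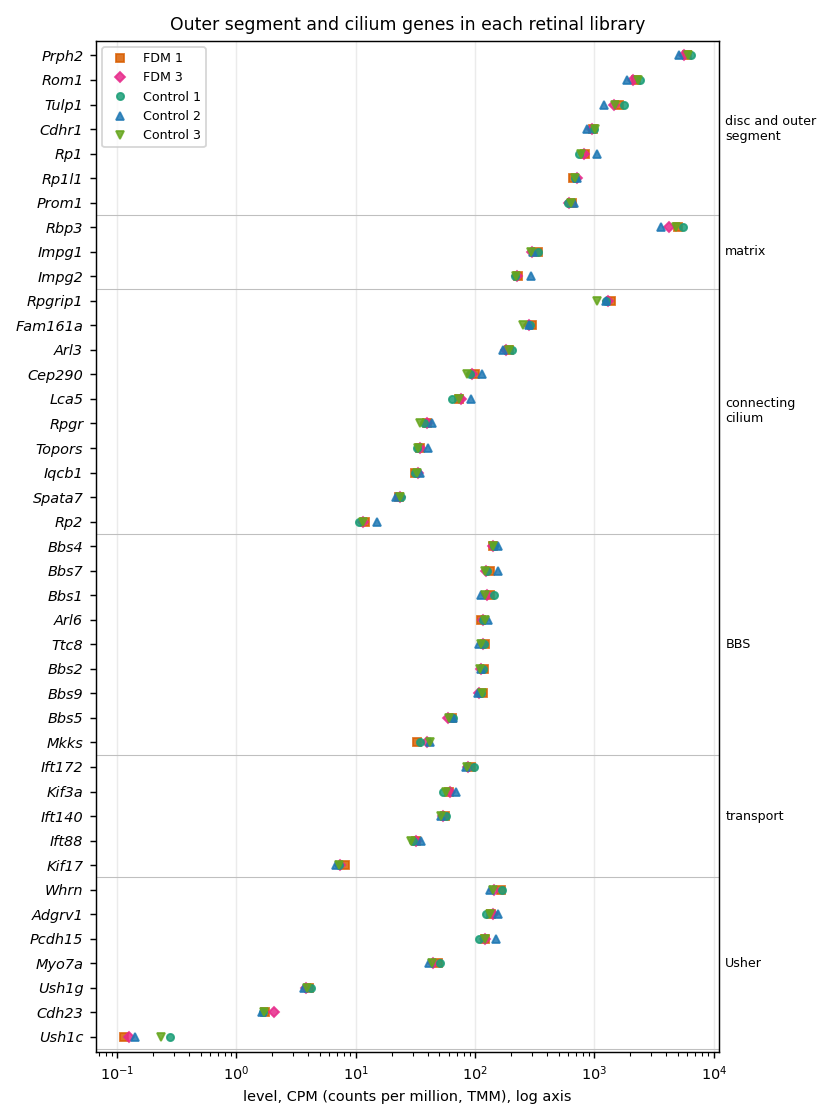
Level of each of the 41 genes in the 2 FDM and 3 control libraries, in TMM-scaled CPM on a log axis, with 1 symbol per library and genes grouped by role. The symbols of a gene nearly coincide for most genes, Prph2 and Rbp3 stand at the top, and Ush1c, with 5 to 11 counts, spreads most among its libraries, at the bottom.

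No difference in disc and outer segment genes was resolved between FDM and control retinas in the main test. Their summed level was 12936 and 12271 CPM in FDM 1 and FDM 3 and 13617, 11482 and 12963 CPM in Control 1, Control 2 and Control 3, and 0 of 7 passed the test, with log2 fold changes between −0.05 and 0.05. Prph2 encodes the tetraspanin that bends the disc membrane at its rim. It was measured at 5972 and 5611 CPM in FDM 1 and FDM 3 and at 6411, 5109 and 6073 CPM in Control 1, Control 2 and Control 3. Both FDM values lay inside the range of the controls, and the means were 5792 ± 255 (SD, n = 2) and 5864 ± 676 CPM (SD, n = 3), a log2 fold change of −0.02 with a 95% interval from −0.29 to 0.26. Tulp1, a tubby-like protein needed for transport of rhodopsin to the outer segment, had 1613 and 1454 CPM in FDM and 1761, 1191 and 1494 CPM in the controls. The control libraries enclosed the FDM libraries here too, and the log2 fold change was 0.05 (−0.33 to 0.43). Rp1, a microtubule-binding protein that aligns the discs along the axoneme, had 838 and 812 CPM in FDM and 739, 1054 and 773 CPM in the controls, with a log2 fold change of −0.05 (−0.42 to 0.32). Control 2 was the lowest library for Prph2 and Tulp1 and the highest for Rp1. The other disc genes, Rom1, the pentaspan protein Prom1, the axonemal Rp1l1 and the photoreceptor cadherin Cdhr1, ranged from 601 to 2427 CPM over the libraries, with FDM and control values that overlapped for each of them.

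The interphotoreceptor matrix genes gave the same picture. Rbp3, the retinoid carrier of the space between photoreceptors and RPE, had 4977 and 4212 CPM in FDM and 5484, 3615 and 4805 CPM in the controls. Its control range, 1.52-fold, was the widest among the 40 members other than Ush1c and enclosed both FDM values, with a log2 fold change of −0.01 (−0.43 to 0.40). The proteoglycan Impg1 had 339 and 297 CPM in FDM and 335, 303 and 292 CPM in the controls, a log2 fold change of 0.04 (−0.20 to 0.27). Its partner Impg2 had 227 and 225 CPM in FDM and 214, 293 and 219 CPM in the controls, where Control 2 alone stood high, and the log2 fold change was −0.10 (−0.43 to 0.24). Thus 0 of 3 matrix genes passed the test.

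In the connecting cilium, 0 of 10 genes passed the test, and the log2 fold changes ran from −0.08 to 0.16. The highest was that of Rpgrip1, the scaffold that holds Rpgr at the gate of the connecting cilium and carries a reversed TAATCC in the stretch printed above. Rpgrip1 was measured at 1372 and 1286 CPM in FDM 1 and FDM 3 and at 1249, 1256 and 1052 CPM in Control 1, Control 2 and Control 3. Both FDM libraries lay above all controls, by a margin smaller than the gap between Control 2 and Control 3, and the means of 1329 ± 61.2 (SD, n = 2) and 1186 ± 116 CPM (SD, n = 3) gave a log2 fold change of 0.16 with a standard error of 0.11 and an interval from −0.09 to 0.41. Of its 12152 exonic bases, 1057 overlap exons of Supt16 on the opposite strand, whose reads an unstranded library cannot separate. Fam161a, a microtubule-associated protein of the connecting cilium, had 297 and 282 CPM in FDM and 291, 282 and 253 CPM in the controls, a log2 fold change of 0.07 (−0.14 to 0.29). The other 8 genes overlapped between the groups: the cargo-releasing GTPase Arl3 and its activating protein Rp2, the gate proteins Rpgr, Cep290, Spata7 and Iqcb1, the ciliary protein Lca5 and the ubiquitin ligase Topors. Their log2 fold changes lay between −0.08 for Rp2 and 0.03 for Rpgr.

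By summed level, the BBSome genes were the most even of the 6 roles over the libraries. The summed level of Arl6, Mkks and the subunits Bbs1, Bbs2, Bbs4, Bbs5, Bbs7, Bbs9 and Ttc8 was 968 and 943 CPM in FDM and 977, 983 and 945 CPM in the controls, and 0 of 9 passed the test. Arl6, which brings the complex to the membrane, had 111 and 117 CPM in FDM and 116, 128 and 121 CPM in the controls, a log2 fold change of −0.09 (−0.29 to 0.11). Mkks, a chaperonin-like protein needed to assemble the complex, had 32.3 and 39.2 CPM in FDM and 34.7, 41.5 and 42.2 CPM in the controls. FDM 1 was the lowest library while FDM 3 lay within the controls, and the log2 fold change was −0.15 (−0.44 to 0.15). Mkks shares 944 of its 3227 exonic bases with AL731706.1 on the same strand, so its count is uncertain. The subunits differed by at most 0.08 on the log2 scale between the group means. Bbs4 was below all controls in both FDM libraries, at 142 CPM each against 142 to 154 CPM, a margin below the rounding of the lowest control, with a log2 fold change of −0.05.

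Among the transport genes 0 of 5 passed the test, and the log2 fold changes ran from 0.01 to 0.12 with a median of 0.03. Kif3a, a subunit of the main ciliary kinesin, had 60.4 and 61.2 CPM in FDM and 54.1, 68.5 and 57.0 CPM in the controls, with a log2 fold change of 0.02 (−0.25 to 0.29). The retrograde train component Ift140 had 56.4 and 53.5 CPM in FDM and 57.4, 51.6 and 51.9 CPM in the controls, with a log2 fold change of 0.04 (−0.17 to 0.24). Kif17, an accessory kinesin, had 8.05 and 7.36 CPM in FDM and 7.24, 6.89 and 7.18 CPM in the controls. Both FDM libraries were above all controls, FDM 3 by a small margin, and the log2 fold change was 0.12 (−0.14 to 0.38). Ift88 and Ift172, components of the anterograde trains, ranged from 29.0 to 34.9 and from 84.6 to 98.4 CPM over the 5 libraries, with overlapping groups.

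The Usher genes ranged from over 100 CPM to a single member near the limit of detection, Ush1c, and 0 of 7 passed the test. Whrn, a scaffold of the periciliary membrane, had 164 and 143 CPM in FDM and 168, 132 and 141 CPM in the controls, a log2 fold change of 0.06 (−0.23 to 0.35). Adgrv1, its giant adhesion receptor partner, and the cadherin Pcdh15 ranged from 108 to 155 CPM, and the motor Myo7a from 41.3 to 50.7 CPM, each with overlapping groups. Myo7a is also made by the RPE. Control 2 had the highest summed level of RPE markers and the lowest level of Myo7a. The part of RPE tissue in the level of Myo7a was not tested. The scaffold Ush1g ranged from 3.67 to 4.21 CPM. Cdh23, a cadherin of the same complex, had 1.73 and 2.08 CPM in FDM and 1.68, 1.63 and 1.71 CPM in the controls, FDM 3 being the one library that stood away, with a log2 fold change of 0.19 (−0.22 to 0.60). Ush1c, which encodes the scaffold harmonin, had 5 and 6 counts in FDM and 11, 8 and 11 counts in the controls. It entered the test only through 2 control libraries, and its log2 fold change of −0.80 had an interval from −1.97 to 0.38, so that a difference of over 2-fold in its transcript could not be resolved at this depth.

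In 5 of the 41 genes the 2 groups did not overlap, which was so for 10.6% of all tested genes. Rpgrip1, Kif17 and Cdh23 were above every control in both FDM libraries, as were 3.97% of all tested genes, and Bbs4 and Ush1c were below every control, as were 6.67%. Since Ush1c met the count filter only through control libraries, its place below them carries no weight.

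The eyes of a mouse can also be compared within the animal, and here the call depended on which numbers pair the libraries. With the table's numbers (FDM 1 with Control 1 and FDM 3 with Control 3, Control 2 alone) as a replicate block, 5 of 41 genes were called at the unadjusted p, where 7.23% of all tested genes were (3.57% higher and 3.67% lower), and 0 of 41 after adjustment, where 0.31% were. In this fit Rpgrip1 was higher in FDM by 0.21 on the log2 scale (edgeR adjusted p = 0.458), Rp1 by 0.13 (adjusted p = 0.682) and Cep290 by 0.13 (adjusted p = 0.684), while Rom1 was lower, with a log2 fold change of −0.12 (adjusted p = 0.683), and so was Rbp3, with −0.16 (adjusted p = 0.603). Of the 5, the unadjusted values ranged from 0.00486 for Rpgrip1 to 0.0474 for Cep290. Prph2 was not called in this fit, with a log2 fold change of −0.11 (edgeR unadjusted p = 0.0728). It was lower in the FDM eye of both mice by these numbers (−0.10 and −0.11), while Rp1 was higher in both (0.18 and 0.07). With the numbers of the sample labels, which pair the second FDM library with Control 2, 0 of 41 were called, where 2.52% of all tested genes were, and Rpgrip1 had a log2 fold change of 0.08. With the factors for each gene and library that the authors applied, 0 of 41 were called without a block, where 1.89% of all tested genes were, and 7 of 41 in the table's block, where 7.31% were (5 higher, beside 4.14%, and 2 lower, beside 3.17%). With these factors and without Control 2, 2 of 41 were called, both higher, where 3.29% of all tested genes were, 2.03% higher. Rom1 and Cep290, named here for their call under the block, and Bbs4 were chosen after their values were seen. Within the 2 mice as the table numbers them, 20 of 41 genes (48.8%) were higher in the FDM eye of both and 13 (31.7%) lower in both, beside 24.7% and 30.3% of all tested genes. The median size of the difference, regardless of sign, was 0.0876 and 0.0524 on the log2 scale in the 2 mice for the 41 genes, beside 0.104 and 0.0977 for all tested genes.

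Control 2 and Control 1 stood at an extreme for most members, and their difference followed the base composition of the transcripts. Control 2 was the highest of the 5 libraries for 16 members and the lowest for 17, that is at an extreme for 80.5% of them, where this held for 62.3% of all tested genes. Control 1 was at an extreme for 58.5% (51.7% of all tested genes). Leaving out Ush1c, the difference of Control 2 minus Control 1 in log2 CPM correlated with the GC content of the longest coding transcript with r = −0.747 (Spearman's rho −0.753) over 40 members. These points come from a single pair of libraries and are not independent. The same difference had r = −0.541 over 14321 genes with at least 1 CPM in every library. Its median was 0.26 in the 15 members with less than 45% GC, −0.12 in the 16 with 45 to 55% and −0.30 in the 9 with over 55%, and the corresponding medians over all these genes were 0.27, −0.02 and −0.23. In the authors' normalized counts, which carry a factor for each gene and library, r was still −0.696 over the members.

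Members of differing GC content stood at opposite ends in Control 2. Prph2 (54.1% GC), Rom1 (57.1%), Rbp3 (55.7%) and Tulp1 (60.5%) were lowest in Control 2, and Rp1 (39.6%), Impg2 (42.4%), Lca5 (43.8%) and Cep290 (38.7%) were highest there, these 8 being chosen for display after their values were seen. Not every gene had this order: Rp1l1 (55.2% GC) had 711 CPM in Control 2 and 690 and 685 CPM in Control 1 and Control 3. Within the library, the ratio of Rp1 to Prph2 CPM was 0.206 in Control 2 and 0.115 to 0.145 in the other 4. The summed level of 10 rod markers, whose median GC is 51.9%, was 55315 CPM in Control 2 and 60225 to 69039 CPM elsewhere and put the libraries in the same order as Prph2, and the share of rod RNA and of GC in this spread was not tested. The difference of the FDM mean minus the control mean had r = 0.475 with GC over the 40 members on the CPM scale, beside 0.16 over the 14321 genes. In the authors' normalized counts it had r = 0.159 over the members, beside 0.0141. In the pairs of the table's numbers, FDM 1 minus Control 1 had r = −0.496 over the members, beside −0.325 over the 14321 genes. FDM 3 minus Control 3 had −0.192, beside −0.0779. In the authors' normalized counts the members had −0.572 and 0.0768. The part of GC in the paired values and calls given above was not tested.

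**Figure D3:**
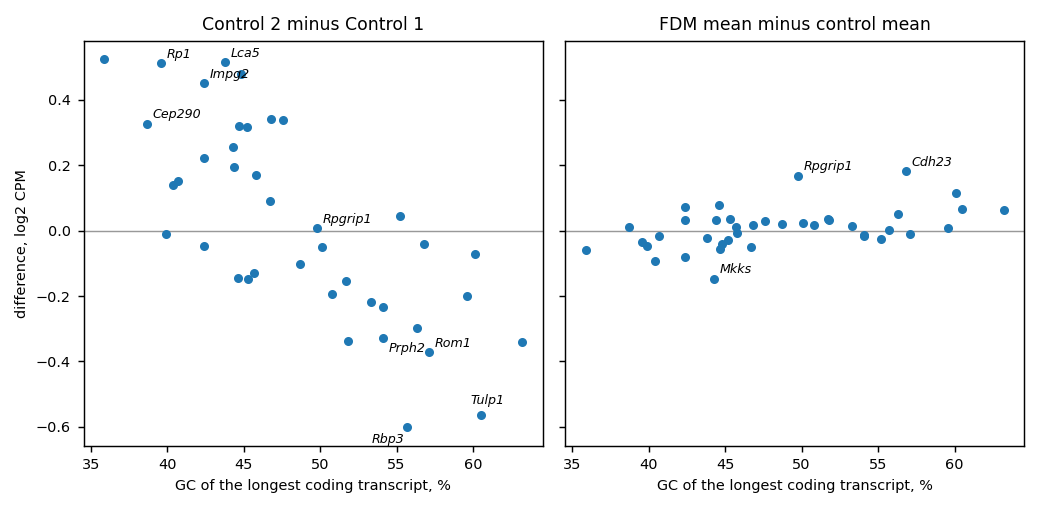
Difference in log2 CPM against the GC content of the longest coding transcript for 40 of the 41 genes (without Ush1c), 1 point per gene, for Control 2 minus Control 1 (left) and for the FDM mean minus the control mean (right) on the same scale. The left panel falls from above 0.4 to below −0.4 with rising GC, while the right panel stays within about 0.2 of 0. The left panel compares 2 single libraries and the right panel means of 2 and 3 libraries. Averaging narrows the right panel, so the 2 spreads are not comparable in size.

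**Figure D4:**
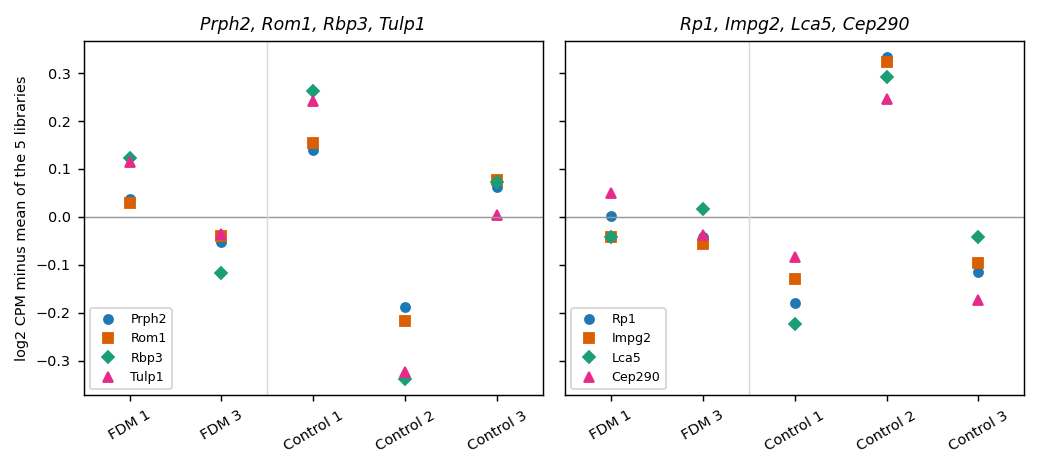
Log2 CPM in each library minus the mean of the 5 libraries for 4 genes rich in GC, Prph2, Rom1, Rbp3 and Tulp1 (left), and 4 genes poor in GC (right). The left-hand genes are lowest and the right-hand genes highest in Control 2, whereas the FDM libraries lie near the middle in both panels.

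A wider list of outer segment, opsin trafficking and cilium genes also held no call. Of 77 such genes 76 were found and tested, and 0 of 76 were called by edgeR, where 1.61% of all tested genes were. In DESeq2 0 of 76 were called, where 172 of 17432 were. In the edgeR fit 43 log2 fold changes were above 0 and 33 below 0, with a median of 0.01. The smallest unadjusted p was 0.178, for the transition zone gene Cc2d2a, whose log2 fold change was 0.13 ± 0.09 (SE). With the table's numbers as a block 6 of 76 were called, where 7.23% of all tested genes were, 5 of them higher (3.57% of all) and 1 lower (3.67%), and 0 after adjustment (0.31%).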

How the data were processed

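Retinal poly(A) RNA of 2 FDM and 3 control eyes was sequenced by the authors from unstranded libraries. Per the labels and the paper, reads were trimmed with Trimmomatic 0.39 and quantified with Salmon 1.10.1 on GRCm38 (mm10). The authors deposited estimated counts per gene, as whole numbers, and a signal of counts normalized in DESeq2 with a factor for each gene and library. Groups came from the labels.

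The estimated counts of 17432 of 33636 genes (more than 10 counts in at least 2 libraries) entered a quasi-likelihood test with TMM factors and no covariate (edgeR 4.0.16, R 4.3.3). The threshold was an unadjusted p of 0.05, as in the study, with Benjamini-Hochberg values beside it. Other settings were the Wald test (DESeq2 1.42.0), limma 3.58.1 on log2 normalized counts with a pseudocount of 1 or 0.1, other factors and filters, replicate blocks, and each library left out in turn. Coordinates, lengths and GC content are from GENCODE M21, where 33586 identifiers were found, and 6 rows with an identifier but no gene name were kept.

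Values in each library are given for the 2 genes with the smallest p and the highest gene per kb in each role, and exceptions are stated. Members and lists were chosen with earlier results of these data known. The control eyes belong to the FDM mice, and both tables and the paper number the second FDM library 3, the labels 2. The main test had no block, since the study's methods name none, and both numberings were fitted as blocks. The main test therefore treated the 2 eyes of a mouse as independent. The paper reports that in this experiment the libraries of 1 animal clustered together. With 2 FDM libraries the deviations from their mean mirror each other, so that correlating them with those of the controls cannot show which libraries pair. In simulated counts for FDM versus control (17432 genes, 200 changed), edgeR recovered 84% of changed genes at 1.5-fold and 100% at 2-fold. Of the unchanged genes 4.38% and 4.45% were called, beside 1.61% of all tested genes in the data. Changed genes were drawn only from those with higher mean counts, and counts were drawn independently for each gene. The recovery in the data may therefore be lower.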

Additional observations from a re-analysis of the deposited data

How the results depend on the processing

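The unadjusted p of 0.05 called 281 of all genes in the main test and 0 of the 41 outer segment and cilium genes and of the 76 further ciliary genes. Over all genes the count was 498 with every gene of at least 1 count, 172 in DESeq2 (3 adjusted), 1261 with the table's numbers as a replicate block, 1274 with that block and the authors' factors, 439 with the label numbers as a block, 573 with the authors' factors and without Control 2, and 146 to 944 with single libraries left out. Among the 41 genes it was 5 with the table's block, 7 with that block and the authors' factors (Rp1, Rpgr, Rpgrip1, Lca5 and Ift88 higher, Rom1 and Rbp3 lower, where 7.31% of all genes were called), 2 with the authors' factors and without Control 2 (Rpgr and Ift88, higher, where 3.29% were) and 0 to 0 with single libraries left out. Among the 76 further genes it was 6, 3 and 1 in these settings, where 7.23%, 7.31% and 3.29% of all genes were called. With single control libraries left out it was 2 without Control 1, 2 without Control 2 and 0 without Control 3. In these fits 944, 550 and 146 of the 17432 tested genes were called. The settings that join the authors' factors with a block or a left-out library were chosen after seeing the data. The cause of these changes was not tested.

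Log2 fold changes this close to 0 changed sign between settings: of 303 values of the 16 genes given by library under other settings, 265 kept their direction and call, 34 had the other sign and 4 kept their direction and passed the threshold. Rp1 had the other sign and also passed the threshold in the table's block, without and with the authors' factors. In the table's block, the same block with the authors' factors, and the authors' factors without Control 2, the values with the other sign were 0.13, 0.16 and 0.15 for Rp1, −0.08, −0.07 and −0.07 for Tulp1, 0.06, 0.08 and 0.08 for Impg2, and −0.01, −0.003 and −0.002 for Whrn. In the label block they were 0.02 for Prph2, −0.01 for Impg1, 0.04 for Rbp3 and −0.003 for Kif3a. Rp1 was at 0.01 in limma with either pseudocount and Rbp3 at 0.0001 with library totals alone. With single libraries left out the values ran from −0.10 to 0.05 for Prph2, −0.15 to 0.14 for Rp1, −0.07 to 0.19 for Tulp1, −0.06 to 0.13 for Impg1, −0.18 to 0.07 for Impg2, −0.15 to 0.13 for Rbp3, −0.002 to 0.09 for Ift140, −0.04 to 0.14 for Kif3a and −0.04 to 0.17 for Whrn. Without FDM 1 or FDM 3 the remaining FDM library was assumed to vary like the controls.

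The 2 FDM and 3 control libraries come from eyes of 3 mice, and no source states their litters. The main test treated eyes of the same mouse as independent, so its p-values mix the spread within and between animals. They measure only the spread between these retinas. In simulated counts 84% of genes changed by 1.5-fold were recovered, and Ush1c alone had counts near the floor. A further FDM retina was not analysed here, the pairing of the second FDM library is given differently by the labels than by the tables and the paper, and the difference of Control 2 from Control 1 follows GC content.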

Other observations

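The subunits of the disc rim kept a nearly fixed proportion. Rom1, the partner of Prph2 in the rim complex, was measured at 2225 and 2122 CPM in FDM 1 and FDM 3 and at 2427, 1875 and 2300 CPM in Control 1, Control 2 and Control 3. The ratio of Rom1 to Prph2 CPM was 0.373 and 0.378 in FDM and 0.379, 0.367 and 0.379 in the controls, so its highest value exceeded its lowest by 1.03-fold, while each gene varied by 1.25- to 1.29-fold between controls. This was the smallest spread among the 780 pairs of members other than Ush1c, whose median spread was 1.29. Pairs of genes from different roles came close to it, Kif3a with Adgrv1 and Bbs1 with Myo7a at 1.04 each. Both genes have many counts and a similar GC content, and the pair was singled out after its values were seen.

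Some other pairs had wider spreads, and the 2 given here were also chosen after their values were seen. The ratio of Impg2 to Rbp3, both of the interphotoreceptor matrix, ran from 0.039 in Control 1 to 0.0809 in Control 2, a spread of 2.07, and that of Cep290 to Arl3 from 0.444 to 0.666. In each of these ratios, and in that of Rp1 to Prph2, Control 2 was the highest library and both FDM libraries lay within the range of the controls.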
